A study of Homo sapiens with 9 samples.

Results

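The 78 genes described here encode the proteins of the cytosolic ribosome. They are the protein-coding genes whose symbols are RPL or RPS followed by a number and at most 1 letter, together with RPLP0, RPLP1, RPLP2 and RPSA, and whose mean over the vehicle libraries was at least 10 CPM, the counts of a gene scaled to a fixed library total. Of 60675 genes in the table, 81 protein-coding genes matched the symbols and 78 reached that level, 46 of the large and 32 of the small subunit. The 3 matching genes under the minimum were RPL39L at 9.05 CPM, RPL3L at 0.223 CPM and RPL10L at 0.0076 CPM, and the lowest 3 above it were RPS29 at 35.8 CPM, RPS27L at 60.0 CPM and RPL34 at 86.7 CPM, each divided by the library total alone. RPS27L is a paralog of RPS27 that the symbols admit. FAU and RACK1 encode ribosomal proteins under other names and are given with the related lists. All 78 genes passed the filter on low counts in the tests.

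The cells were SW1783, an established human astrocytoma line, exposed for 24 h. The groups were a 70% ethanol extract of Poria Cocos (a fungus) at 20, 100 and 500 µg/mL, a 70% ethanol extract of Atractylodis Rhizoma (a plant rhizome) at 20, 100 and 500 µg/mL, and DMSO vehicle. Each extract and dose has 1 library and vehicle has 3, so that no treated condition has a replicate of its own. The treated libraries are all numbered replicate 2, a number that only 1 of the vehicle libraries carries. A difference tied to the replicate number can therefore not be fully told apart from treatment. All groups share the L-15 medium with serum and the batch letter. The labels do not say that libraries came from separate cultures, so the spread behind the p-values is that of these samples only and may be technical. The vehicle is 0.1% DMSO in the sample labels and 2% in the series design, which was not settled, and no DMSO content is given for the treated wells.

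A cytosolic ribosome joins a small subunit, which reads the mRNA, and a large subunit, which forms the peptide bonds. Most proteins of the ribosome are needed at about the same number of copies. Most mRNAs of these proteins begin with a C followed by a run of pyrimidines, the terminal oligopyrimidine start, through which LARP1 and the mTORC1 kinase control their translation. Ribosome production takes up a large part of the transcription of a dividing cell, and astrocytoma lines are dividing cells. Several ribosomal proteins also act outside the ribosome, the best known being RPL5 and RPL11, which hold the ubiquitin ligase MDM2 when ribosome assembly is disturbed.

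The starts of 10 members are shown because these are genes with some of the largest changes under treatment, in both directions. Each line gives 45 bases before and 15 bases from a RefSeq transcription start on GRCh38.p14, 5′ to 3′ on the gene's strand, and the capitals mark the run that opens with C at the start. The first 5 genes were lower in treated cells and the last 5 were higher.
RPL14, chr3:40457294-40457353, plus strand: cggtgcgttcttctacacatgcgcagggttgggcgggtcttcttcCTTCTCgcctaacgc
RPL13A, chr19:49487563-49487622, plus strand: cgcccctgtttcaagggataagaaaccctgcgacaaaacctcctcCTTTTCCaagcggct
RPL11, chr1:23691761-23691820, plus strand: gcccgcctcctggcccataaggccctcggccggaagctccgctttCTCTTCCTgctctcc
RPL29, chr3:51995881-51995940, minus strand: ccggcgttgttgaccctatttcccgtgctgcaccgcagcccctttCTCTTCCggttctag
RPS14, chr5:150449725-150449784, minus strand: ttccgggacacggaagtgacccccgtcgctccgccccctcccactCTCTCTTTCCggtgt
RPS27A, chr2:55232643-55232702, plus strand: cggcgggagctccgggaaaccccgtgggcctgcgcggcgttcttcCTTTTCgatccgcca
RPS21, chr20:62387058-62387117, plus strand: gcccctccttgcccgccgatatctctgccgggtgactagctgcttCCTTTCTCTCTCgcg
RPS12, chr6:132814524-132814583, plus strand: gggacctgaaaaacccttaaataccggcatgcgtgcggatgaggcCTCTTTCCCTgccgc
RPS27L, chr15:63157463-63157522, minus strand: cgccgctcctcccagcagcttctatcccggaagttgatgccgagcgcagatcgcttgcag
RPS3A, chr4:151099583-151099642, plus strand: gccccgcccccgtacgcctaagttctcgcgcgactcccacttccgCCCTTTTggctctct

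RefSeq promoters were matched for 63 of the 78 members. A C at the start followed by at least 4 pyrimidines stood at 46 of the 63 starts (73.0%), against 1404 of all 27305 genes in the promoter table (5.14%). The run was there on both sides of the treatment response, at 18 of 22 matched members that fell, at 6 of 8 that rose and at 22 of 33 that were not called. The paralog RPS27L had no run. Where RefSeq lists several starts for a gene, which it does for 10 members, the start with the longest run was used, so these shares are upper values. In the window of 250 bases before to 50 after the start, CCGGAAG on either strand, the core of ETS factor sites, was present in 36.5% of the members and in 12.2% of all genes. TATAA on either strand was present in 19.0% of the members and in 24.2% of all genes.

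Levels among the members differed widely within vehicle cells. The vehicle mean, scaled with TMM factors (which correct for composition), had a median of 513 CPM over the 78 genes and ran between 36.9 ± 5.56 CPM for RPS29 and 1981 ± 53.6 CPM for RPS2 (SD, n = 3). Per kilobase of coding sequence the order was led by RPL41, which encodes the shortest ribosomal protein, at 8161 CPM per kilobase. RPL39, another very short protein that lines the exit tunnel, followed with 2772, RPL37 with 2327 and RPS2 with 2247 CPM per kilobase. The lowest were RPS29 with 216, RPS27L with 243, RPL34 with 253 and RPL31 with 281 CPM per kilobase of coding sequence, and the median was 1090. Per kilobase of the whole principal transcript the order changed, with RPS2 first at 2012 and RPS27L last at 9.62 CPM per kilobase, because some principal transcripts are annotated as several kilobases long, such as that of RPL37 with 7686 bases. The vehicle libraries were close to each other, with a median coefficient of variation of 3.48% per member, lowest for RPL29 at 0.25% and highest for RPS29 at 15.1%. Of the reads assigned to a member together with its annotated pseudogenes, the pseudogenes took 40.9% for RPL23A, 23.0% for RPL9, 17.0% for RPL36A, 11.3% for RPS2 and 10.8% for RPL22, so the split between gene and copies is uncertain for these.

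The libraries held between 42499213 and 48905536 counts when treated and between 40269665 and 43805624 counts in vehicle. Counts of mitochondrial transcripts made up 5.38% to 6.97% of treated libraries and 5.93% to 6.46% of vehicle libraries. The long nuclear RNA MALAT1 was at 1111 to 1295 CPM in treated libraries and 898 to 931 CPM in vehicle libraries, and NEAT1 at 396 to 650 CPM in treated and 288 to 301 CPM in vehicle libraries, with no overlap for either. Their part in the results below was not tested. Of 9 astrocyte markers, 3 reached 1 CPM in some library. GFAP was at most 0.159 CPM in any library, AQP4, ALDH1L1 and FABP7 were under 0.1 CPM in all, and the mesenchymal gene VIM was at 4674 to 5378 CPM in treated and 5802 to 6115 CPM in vehicle libraries. The summed astrocyte list was at 294 to 346 CPM in treated and 357 to 366 CPM in vehicle libraries. Of the markers present, SOX9 was at 58.6 to 74.7 CPM in treated and 83.2 to 84.9 CPM in vehicle libraries. SLC1A3 went the other way from the sum, at 25.0 to 27.1 CPM in treated and 21.0 to 22.0 CPM in vehicle libraries. Most of the sum came from the other marker that reached 1 CPM, which is not reported here by name. The astrocytic origin in the label therefore rests on few of its defining markers. Of 5 glioma and mesenchymal markers all reached 1 CPM, with sums of 16018 to 17073 CPM in treated and 18344 to 18869 CPM in vehicle libraries. Not each of these genes was lower. CD44 overlapped, at 2493 to 2741 CPM in treated and 2696 to 2785 CPM in vehicle libraries. NES was at 6.29 to 8.26 CPM in treated and 6.04 to 6.62 CPM in vehicle libraries. Markers of other cell types reaching 1 CPM were 3 of 5 for neurons (sums of 51.7 to 67.8 CPM in treated and 57.8 to 59.7 CPM in vehicle), 3 of 5 for myeloid cells (133 to 164 CPM in treated and 175 to 183 CPM in vehicle), 2 of 4 for endothelium (32.1 to 40.0 CPM in treated and 28.9 to 31.0 CPM in vehicle), 1 of 4 for oligodendrocytes (5.80 to 8.02 CPM in treated and 5.71 to 6.06 CPM in vehicle) and 0 of 4 for epithelium (0.575 to 1.03 CPM in treated and 0.713 to 0.785 CPM in vehicle).

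The question put to all 6 treated libraries together was which of these genes differ from vehicle on average over the extracts and doses. The spread behind these p-values includes that between extracts and doses, and a call need not hold at each dose. More members fell than rose: 27 fell, 8 rose and 43 were not called by the edgeR quasi-likelihood test, two-sided, with p-values adjusted over 18356 genes (threshold 0.05). The shares were 34.6% lower and 10.3% higher, against 13.3% lower and 12.0% higher among all genes tested. The changes were small. The median log2 change was -0.09 over the members and 0.01 over all genes tested, and the members ran between -0.38 and 0.45. In the large subunit 15 fell and 2 rose, and in the small subunit 12 fell and 6 rose. With every treated library below every vehicle library there were 21 members (13.7% of all genes tested), and with every treated library above there were 7 (12.4% of all genes tested). Scaling by library totals alone, without the composition factor, gave 19 lower and 12 higher (7.58% and 21.7% of all genes), with medians of -0.02 for the members and 0.08 for all genes. Without the Atractylodis library at 20 µg/mL, 44 members were lower and 9 higher (15.5% and 13.9% of all genes). CPM are shares of a library, so a lower value per cell and a larger total of other RNA cannot be told apart, nor can fewer expressing cells and less RNA per cell.

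**Figure D1:**
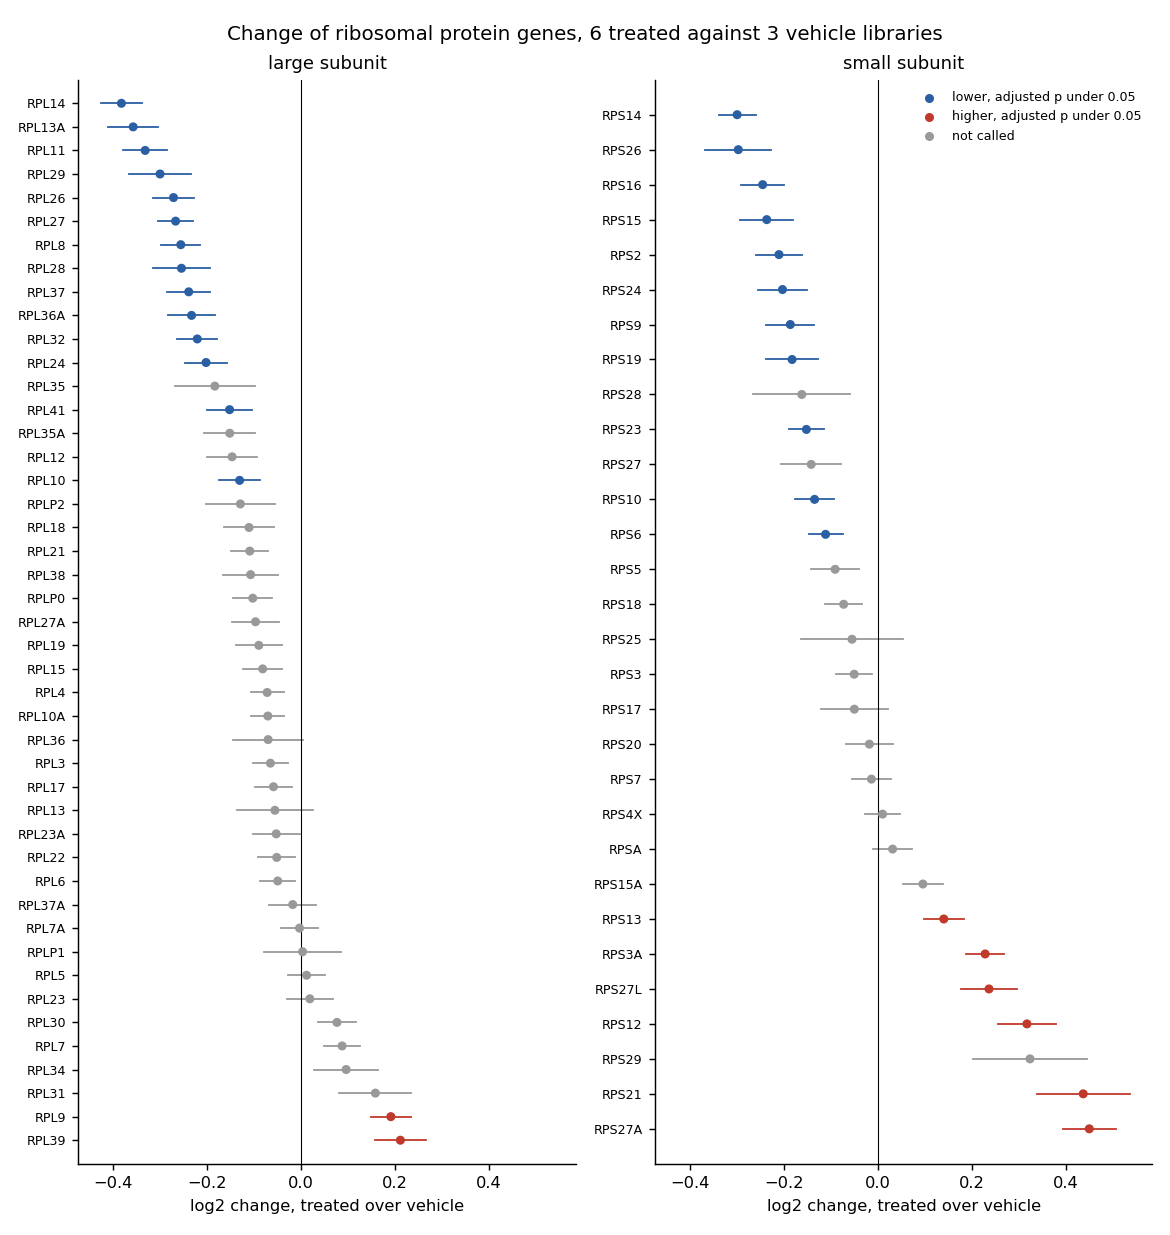
Log2 change of members in the 6 treated libraries over the 3 vehicle libraries (horizontal axis), with the SE as a bar, in separate panels for the large and the small subunit. RPL14 with -0.38 and RPS14 with -0.30 stand at the top as the lowest of their subunits, and RPL39 with 0.21 and RPS27A with 0.45 at the bottom as the highest.

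Among the large subunit genes, RPL14, RPL13A and RPL11 fell most. RPL14 was at 339, 352 and 320 CPM with Poria at 20, 100 and 500 µg/mL and at 363, 329 and 316 CPM with Atractylodis, against 447, 439 and 430 CPM in the vehicle libraries. RPL13A, which also belongs to an interferon-induced complex that blocks translation of inflammatory mRNAs, was at 806, 779 and 754 CPM with Poria and at 923, 814 and 769 CPM with Atractylodis, against 1057, 999 and 1048 CPM in vehicle. RPL11, a partner of RPL5 and 5S rRNA, was at 719, 709 and 668 CPM with Poria and at 780, 690 and 657 CPM with Atractylodis, against 895, 883 and 880 CPM in vehicle. For each of these genes the groups did not overlap, and the highest treated library was Atractylodis at 20 µg/mL. The log2 changes were -0.38 ± 0.04 for RPL14 (SE, adjusted p = 1.3e-05), -0.36 ± 0.05 for RPL13A (adjusted p = 0.00012) and -0.33 ± 0.05 for RPL11 (adjusted p = 8.0e-05), and their levels fell by 23.3%, decreased by 22.0% and dropped by 20.6% of vehicle in that order.

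RPL29, also known as a heparin-binding protein of the cell surface, averaged 439 ± 42.7 CPM in treated cells (SD, n = 6) and 541 ± 1.36 CPM in vehicle cells (SD, n = 3), a log2 change of -0.30 ± 0.07. RPL26 fell by 0.27 on the log2 scale, as did RPL27. RPL8, which lies close to the peptidyl transferase centre, fell by 0.26, RPL28 fell by 0.26 and RPL37 fell by 0.24. RPL36A, RPL32 and RPL24 fell by between 0.20 and 0.23. RPL41 fell by 0.15 and RPL10, which joins the subunit last, fell by 0.13. The calls of RPL41 and RPL10 had the highest p among the large subunit genes that fell, with adjusted p of 0.026 and 0.032, and both were lost with library totals alone (adjusted p = 0.19 and 0.26) and after correction for GC content and transcript length (adjusted p = 0.13 and 0.093). Leaving out vehicle replicate 1 or 2 or Poria at 100 µg/mL also ended both, that of RPL41 also without Atractylodis at 100 µg/mL and that of RPL10 also without vehicle replicate 3 (adjusted p between 0.055 and 0.15).

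In the small subunit RPS14 and RPS26 were among the genes that fell most, each by 0.30 on the log2 scale. RPS14, the gene within the deleted region of the 5q- blood syndrome, was at 465, 469 and 437 CPM with Poria at 20, 100 and 500 µg/mL and at 491, 466 and 477 CPM with Atractylodis, against 571, 594 and 561 CPM in vehicle. RPS26, which lines the mRNA exit channel, was at 236, 224 and 231 CPM with Poria and at 267, 230 and 205 CPM with Atractylodis, against 311, 279 and 267 CPM in vehicle. RPS14 was well apart between the groups, whereas RPS26 came close, with the highest treated value of 266.7 CPM beside the lowest vehicle value of 266.9 CPM. RPS2, the most abundant member, averaged 1712 ± 108 CPM in treated cells (SD, n = 6) and 1981 ± 53.6 CPM in vehicle cells (SD, n = 3), with an adjusted p of 0.0042. RPS16, RPS15, RPS24, RPS9, RPS19, RPS23, RPS10 and RPS6 fell by between 0.11 and 0.25. RPS19, the gene most often mutated in Diamond-Blackfan anaemia, fell by 0.18 and RPS6, the substrate of the S6 kinases, fell by 0.11. Both calls were lost with library totals alone and without vehicle replicate 1 or 2 (adjusted p between 0.051 and 0.40), as was that of RPS6 without vehicle replicate 3 (adjusted p = 0.11). Leaving out Poria at 100 µg/mL ended the call of RPS19 (adjusted p = 0.052), and leaving out Poria at 20 µg/mL or Atractylodis at 100 µg/mL ended that of RPS6 (adjusted p = 0.052 and 0.064).

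The 8 members that rose were RPS27A, RPS21, RPS12, RPS27L, RPS3A and RPS13 of the small subunit and RPL39 and RPL9 of the large subunit. RPS27A, which is made as a fusion with ubiquitin, was at 270, 281 and 268 CPM with Poria at 20, 100 and 500 µg/mL and at 271, 285 and 305 CPM with Atractylodis, against 194, 229 and 191 CPM in vehicle. RPS21 was at 185, 193 and 169 CPM with Poria and at 237, 194 and 201 CPM with Atractylodis, against 146, 156 and 133 CPM in vehicle. RPS12 was at 326, 348 and 317 CPM with Poria and at 375, 350 and 364 CPM with Atractylodis, against 264, 309 and 261 CPM in vehicle. Vehicle replicate 2 was the highest vehicle library for each of them, and for RPS12 its 309 CPM came close to the lowest treated value of 317 CPM, but no groups overlapped. It is the vehicle library that shares its replicate number with the treated libraries, and the part of this in the rise was not tested. The log2 changes were 0.45 ± 0.06 for RPS27A (SE, adjusted p = 5.7e-05), 0.44 ± 0.10 for RPS21 (adjusted p = 0.012) and 0.32 ± 0.06 for RPS12 (adjusted p = 0.0017).

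RPS3A averaged 596 ± 21.5 CPM in treated cells (SD, n = 6) and 509 ± 20.2 CPM in vehicle cells (SD, n = 3), a log2 change of 0.23 ± 0.04. RPS27L was at 71.3, 68.4 and 64.5 CPM with Poria at 20, 100 and 500 µg/mL and at 76.1, 75.5 and 81.8 CPM with Atractylodis, against 62.5, 61.3 and 61.8 CPM in vehicle. Every treated library was above vehicle, and the Atractylodis libraries were above the Poria ones. RPS27L lost its call after correction for GC content and transcript length (adjusted p = 0.11). RPL39 rose by 0.21 ± 0.05, with adjusted p of 0.062 without vehicle replicate 1 and 0.052 without vehicle replicate 3, and RPL9 rose by 0.19 and RPS13 by 0.14. RPS29, the lowest member, had a log2 change of 0.32 ± 0.12 and was not called (adjusted p = 0.086), but passed when vehicle replicate 2 (adjusted p = 0.017) or Poria at 500 µg/mL (adjusted p = 0.047) was left out. It also passed with library totals alone (adjusted p = 0.048), after correction for GC content and length (adjusted p = 0.037) and in DESeq2 (adjusted p = 0.041).

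**Figure D2:**
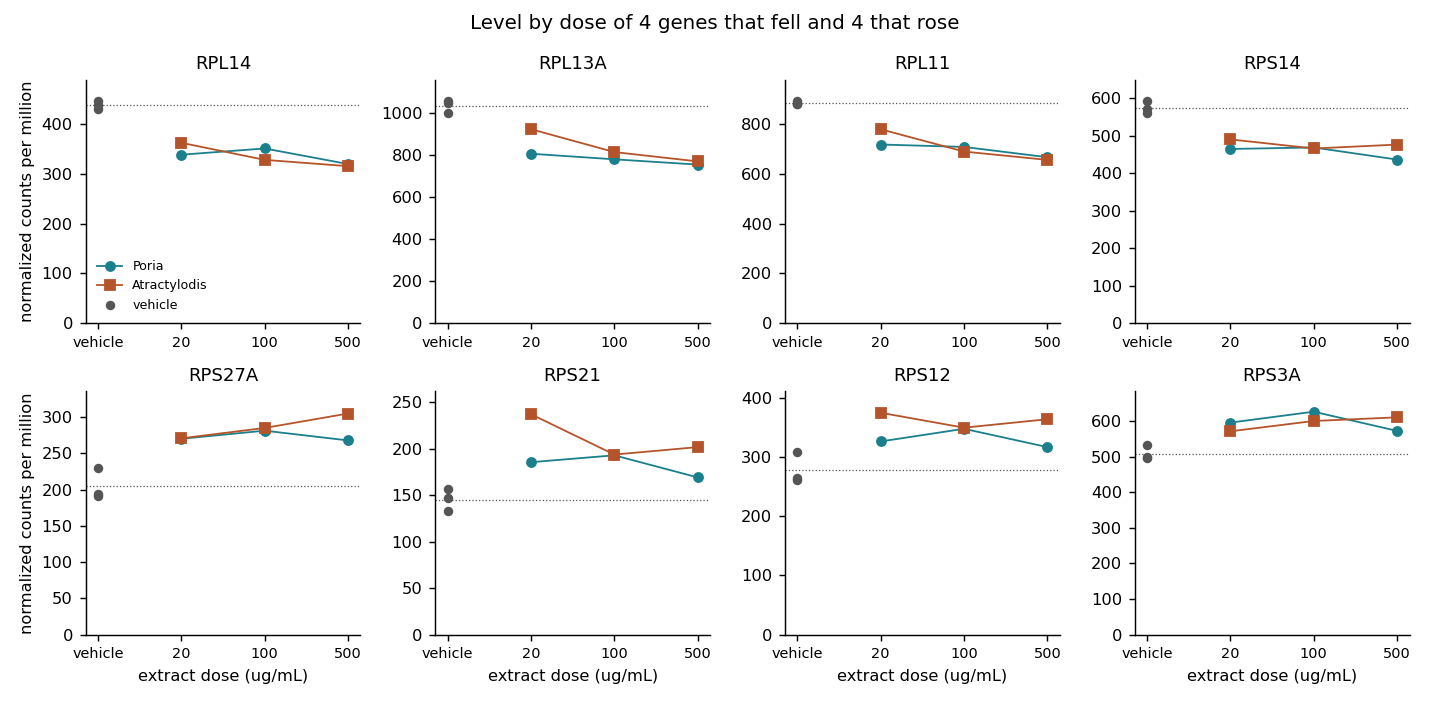
Level in TMM-scaled CPM (vertical axis, starting at 0) by extract dose in µg/mL for 4 genes that fell (upper panels) and 4 that rose (lower panels), with the 3 vehicle libraries as points at the left and their mean as a dotted line. All 6 treated libraries lie below the vehicle points for RPL14, RPL13A, RPL11 and RPS14 and above them for RPS27A, RPS21, RPS12 and RPS3A.

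Many of the best known members were not called, which does not show that they were unchanged. Of the stalk proteins that recruit elongation factors, RPLP0 averaged 927 ± 40.1 CPM in treated and 996 ± 16.7 CPM in vehicle cells, and the log2 changes of RPLP0, RPLP1 and RPLP2 were -0.10 ± 0.04, 0.00 ± 0.08 and -0.13 ± 0.07 (SE). RPL5, which forms the complex with RPL11, had a log2 change of 0.01 ± 0.04, while RPL11 fell. RPSA, also known as a laminin receptor, had 0.03 ± 0.04, RPS4X had 0.01 ± 0.04 and RPS3, which also acts in DNA repair, had -0.05 ± 0.04. The core large subunit genes RPL3 and RPL4 had -0.07 ± 0.04 each. For RPL4 every treated library was below vehicle, at 971 to 1008 CPM against 1026 to 1064 CPM. RPS25, which some viral internal entry sites need, was at 465 CPM with Atractylodis at 20 µg/mL. It was at 325 to 363 CPM in the other treated libraries, against 359 to 408 CPM in vehicle. Some of these members were called lower under alternatives. Without Atractylodis at 20 µg/mL, RPLP0, RPLP2 and RPS25 passed (adjusted p = 0.0054, 0.0054 and 0.026). In DESeq2 RPLP0 and RPL4 passed (adjusted p = 0.023 and 0.014), and RPLP2 passed without a low-count filter (adjusted p = 0.019).

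Summed over the members, the share of all counts overlapped between the groups, with 4.04% ± 0.158 in treated (SD, n = 6) and 4.15% ± 0.0891 in vehicle libraries (SD, n = 3). The 78 genes held 3.97%, 4.08% and 3.85% of the counts with Poria at 20, 100 and 500 µg/mL and 4.32%, 3.97% and 4.05% with Atractylodis, against 4.15%, 4.23% and 4.05% in the vehicle libraries. The Atractylodis library at 20 µg/mL held the highest share of all 9 libraries. Setting aside mitochondrial counts gave 4.09% to 4.57% in treated and 4.32% to 4.50% in vehicle libraries. The balance between the subunits also differed. Large subunit counts were 1.52 to 1.56 times the small subunit counts in treated libraries and 1.58 to 1.59 times in vehicle libraries, with no overlap. The mean ratio was 1.53 ± 0.0163 in treated (SD, n = 6) and 1.58 ± 0.0058 in vehicle libraries (SD, n = 3). This ratio is taken within a library and so is the same under any library scaling.

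**Figure D3:**
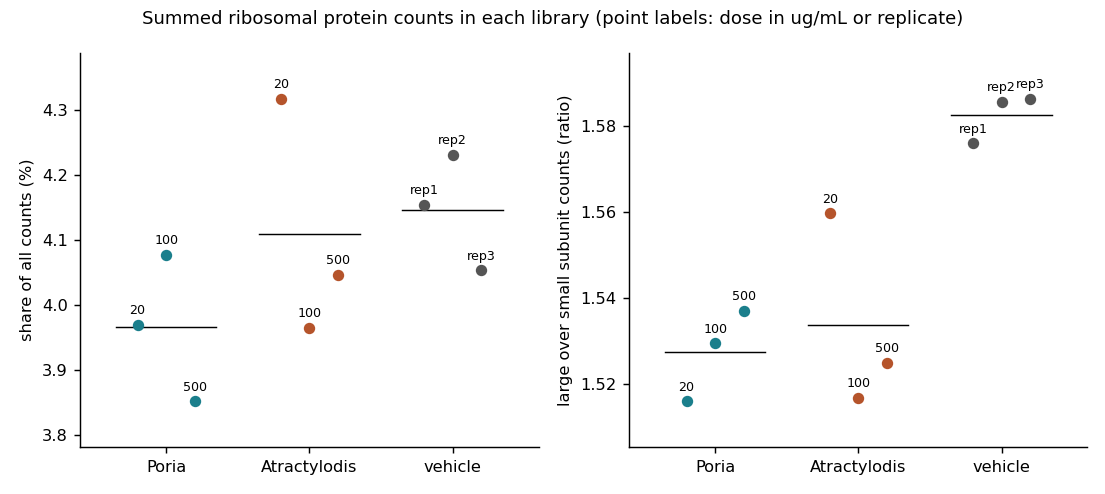
Share of all counts held by the 78 genes (left, %) and ratio of large to small subunit counts (right) in each Poria, Atractylodis and vehicle library, with the group mean as a line, and vertical axes that do not start at 0. The share overlaps between the groups, whereas the ratio is at most 1.56 in treated and at least 1.58 in vehicle libraries.

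The dose trend is a log2 slope per dose step, with vehicle as the first step. The treated doses are 5-fold apart, but the step from vehicle to the lowest dose is not a 5-fold one. A flat difference between treated and vehicle libraries also gives a slope. A call on this trend therefore need not mean a change among the treated doses, for which the slope without vehicle is given below. With Poria 36 members fell (46.2%) and only RPS3A rose (1.28%), against 11.6% lower and 9.16% higher among all genes tested. With Atractylodis 21 fell (26.9%) and 6 rose (7.69%), against 10.5% lower and 8.49% higher. Both trends share the vehicle libraries. The median slope was -0.06 per step for Poria and -0.04 per step for Atractylodis, and it was 0.00 over all genes for either. With library totals alone the counts were 24 lower and 4 higher for Poria (6.04% and 17.3% of all genes) and 16 lower and 8 higher for Atractylodis (5.86% and 14.6% of all genes). With dose in µg/mL in place of the step, no member passed for either extract, and at an unadjusted p under 0.05 there were 27 lower and 0 higher for Poria (16.6% of all genes in either direction) and 10 lower and 2 higher for Atractylodis (13.5% of all genes). Without the Atractylodis library at 500 µg/mL, 13 members fell and 2 rose with that extract (3.46% and 2.21% of all genes). On the same trend 2 rose without its library at 100 µg/mL (4.85%) or without vehicle replicate 1 (4.82%). Without vehicle replicate 3, 3 rose (4.93%). With Poria 24 fell and 3 rose without its library at 500 µg/mL (8.76% and 5.86% of all genes).

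The steepest Poria slopes were -0.16 ± 0.02 per step for RPL13A and RPL29, -0.15 ± 0.02 for RPL14, and -0.14 ± 0.02 for RPL11 and RPL28 (SE, adjusted p between 8.8e-05 and 0.00091). The steepest Atractylodis slopes were -0.16 ± 0.02 per step for RPL14, -0.14 ± 0.03 for RPS26, -0.14 ± 0.02 for RPL11 and RPL13A, and -0.12 ± 0.02 for RPL29 (adjusted p between 0.00038 and 0.0047). In the upward direction Atractylodis gave 0.18 ± 0.05 per step for RPS27A, and 0.12 ± 0.02 for RPS27L and for RPL39. The call of RPS27A on this trend was lost when vehicle replicate 1 or 2, Poria at 100 µg/mL or Atractylodis at 100 or 500 µg/mL was left out (adjusted p between 0.051 and 0.15). The Poria slopes of the same genes were 0.14 ± 0.05 for RPS27A, 0.02 ± 0.02 for RPS27L and 0.06 ± 0.02 for RPL39, none of which passed. Under alternatives, RPS27A passed with Poria in DESeq2 (adjusted p = 0.022). RPL39 passed with Poria in DESeq2, with library totals alone, without a low-count filter and after GC and length correction (adjusted p between 0.0083 and 0.029). It also passed without Poria at 20 or 500 µg/mL (adjusted p = 0.044 and 0.0081). RPS3A had 0.08 ± 0.02 per step with either extract (adjusted p = 0.036 with Poria and 0.027 with Atractylodis). Its Poria call was lost without any 1 of the vehicle replicates or either library at 100 µg/mL (adjusted p between 0.051 and 0.13), and its Atractylodis call without any 1 of the vehicle replicates or Atractylodis at 100 or 500 µg/mL (adjusted p between 0.054 and 0.12).

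Poria and Atractylodis slopes were then tested against each other. No member had a slope that differed by adjusted p in edgeR (against 0.676% lower and 0.485% higher among all genes tested), 8 members were lower with Poria and 0 higher at an unadjusted p under 0.05 (13.1% of all genes in either direction), and DESeq2 called 2 lower (1.01% of all genes). The differences ran between -0.10 and 0.02 per step. The smallest adjusted p was that of RPS27L, with a difference of -0.10 ± 0.03 per step (adjusted p = 0.085). Next came RPL37A with -0.07 ± 0.02 (adjusted p = 0.12).

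A slope over the 3 treated doses alone, without the vehicle level, asks whether the response grows with dose once extract is present. For Poria 2 members fell, RPL12 and RPS27, each by 0.12 per step, and none rose, against 1.25% lower and 1.20% higher among all genes. At an unadjusted p under 0.05 there were 13 lower and 0 higher (15.4% of all genes in either direction). Without Poria at 20 µg/mL, 0 passed (0.246% lower and 0.372% higher among all genes), and likewise without Poria at 500 µg/mL (0.0219% and 0.0658%). For Atractylodis 16 fell (20.5%) and RPL39 rose, by 0.14 per step, against 2.54% lower and 1.50% higher. The largest falls were those of RPS25 with -0.26 ± 0.04 per step, RPL35 with -0.22 ± 0.03 and RPS26 with -0.19 ± 0.04. These slopes turned on 1 library: without Atractylodis at 20 µg/mL no member passed in either direction (0.263% and 0.296% of all genes). The median member slope was then 0.0055 per step, against -0.05 with all libraries. Without Atractylodis at 500 µg/mL 9 fell and 0 rose (0.532% and 0.307% of all genes). Calls thus became fewer over all genes too. A level that went down at both steps between 20 and 500 µg/mL was found for 24 members with Poria (22.3% of all genes tested did so) and for 34 members with Atractylodis (20.9% of all genes tested).

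Single doses were set against vehicle in a fit that takes the spread of the vehicle libraries for the unreplicated doses too. With Poria 34 members were lower and 6 higher at 20 µg/mL (11.4% and 8.42% of all genes), 30 lower and 6 higher at 100 µg/mL (14.3% and 11.2% of all genes), and 47 lower and 2 higher at 500 µg/mL (17.1% and 14.4% of all genes). With Atractylodis 11 were lower and 13 higher at 20 µg/mL (10.0% and 7.51% of all genes), 36 lower and 6 higher at 100 µg/mL (13.9% and 11.3% of all genes), and 34 lower and 9 higher at 500 µg/mL (16.6% and 14.4% of all genes). The median log2 changes were -0.11, -0.09 and -0.18 for Poria and 0.02, -0.11 and -0.11 for Atractylodis in dose order. At Atractylodis 20 µg/mL more members were higher than lower. Without vehicle replicate 3 it had more lower than higher, as over all genes, and a median log2 change of 0.00. With library totals alone it had 5 lower and 24 higher (5.45% and 14.7% of all genes), while Poria at 100 µg/mL had 22 lower and 11 higher (8.12% and 20.9%), Atractylodis at 100 µg/mL had 24 lower and 8 higher (9.24% and 17.2%), and Atractylodis at 500 µg/mL had 20 lower and 13 higher (10.1% and 23.5%). Vehicle replicate 2 bore on the higher counts: without it more members, and more of all genes, were called higher at every dose. The median log2 changes of the members were then -0.10, -0.07 and -0.17 for Poria and 0.03, -0.11 and -0.10 for Atractylodis in dose order. Without vehicle replicate 1 more members were called higher at every dose, while fewer of all genes were. The medians at 100 µg/mL were then -0.08 with Poria and -0.11 with Atractylodis. They were 0.01 with Atractylodis at 20 µg/mL and -0.18 with Poria at 500 µg/mL.

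**Figure D4:**
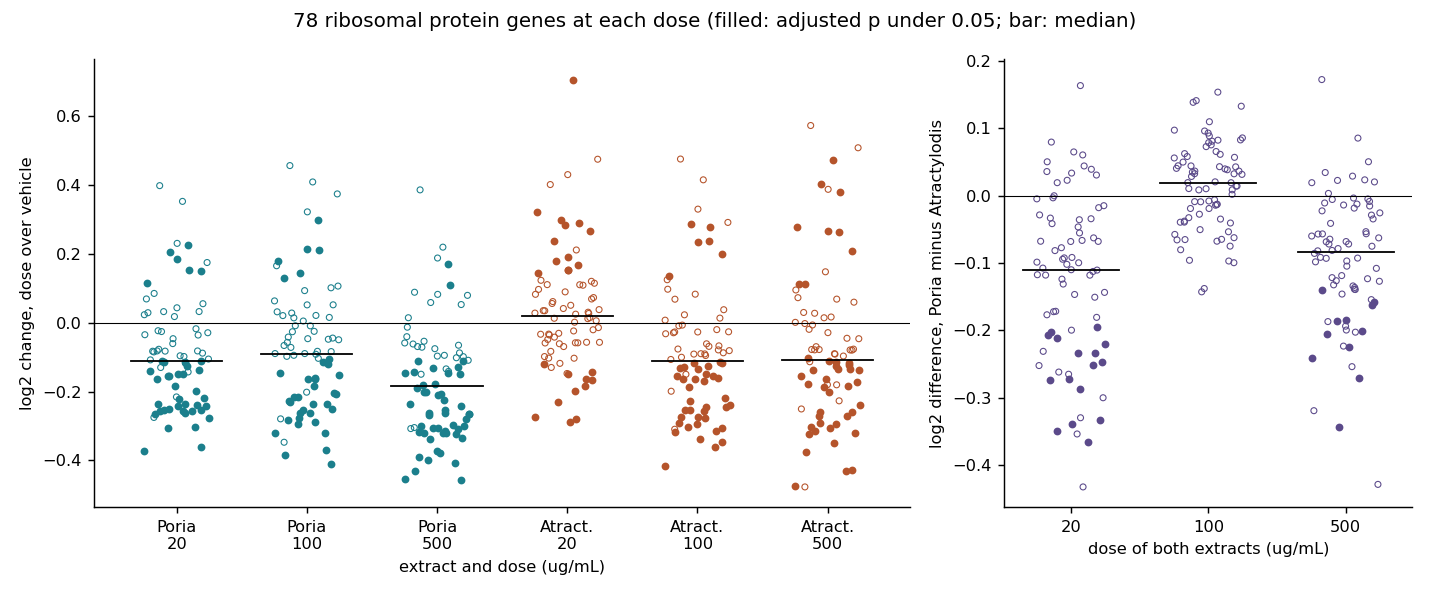
Log2 change over vehicle of each of the 78 genes at each dose (left) and log2 difference, Poria minus Atractylodis, at the same dose (right), with filled points for adjusted p under 0.05 and a bar at the median. The median is near 0 with Atractylodis at 20 µg/mL and between -0.18 and -0.09 at the other 5 doses, and the differences between the extracts lie mostly below 0 at 20 and 500 µg/mL.

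The extracts were compared directly at matched doses, a comparison added after the values were seen. At 20 µg/mL 16 members were lower with Poria than with Atractylodis and 0 were higher, against 0.676% lower and 0.398% higher among all genes tested, with a median log2 difference of -0.11. At 100 µg/mL none was lower or higher (0.131% and 0.163% of all genes), with 2 lower and 3 higher at an unadjusted p under 0.05 (8.04% of all genes in either direction). At 500 µg/mL 11 were lower with Poria and 0 higher (5.71% and 5.37% of all genes), with a median of -0.08. Each difference rests on 1 library a side, and its test takes its spread from the vehicle libraries alone, so that the spread between treated cultures is not measured. Leaving out vehicle replicate 1 gave 27 lower at 20 µg/mL (1.40% of all genes) and 19 lower at 500 µg/mL (6.23%), and leaving out vehicle replicate 2 gave 33 (2.75%) and 32 (8.82%).

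Among the members called at 20 µg/mL the stalk gene RPLP2 differed most. It was at 247 CPM with Poria and 319 CPM with Atractylodis, beside 289 to 304 CPM in vehicle, a log2 difference of -0.37. RPL13, RPL36 and RPL35 followed with -0.35, -0.34 and -0.33. In all of these the Atractylodis library was above the 3 vehicle libraries and the Poria library below them. At 500 µg/mL the called genes that differed most were RPS27L with -0.34, RPL39 with -0.27 and RPL37A with -0.24. RPL39 was at 467 CPM with Poria and 563 CPM with Atractylodis at that dose, beside 421 to 449 CPM in vehicle, so that it was above vehicle with both extracts.

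The members differ in base composition as well as in response. Median GC content was 53.9% in the 27 members that fell, 44.3% in the 8 that rose and 49.0% in the 43 not called, beside 49.3% for all members and 48.9% for all genes tested. Over the 78 genes the Spearman correlation between GC content and the log2 change in treated cells was -0.41, and over all genes tested it was -0.30, a description across genes that share the same libraries. The Spearman correlation was -0.49 with vehicle CPM per kilobase of coding sequence and -0.03 with coding length. Correcting each library for GC content and transcript length gave 25 members lower and 8 higher in treated cells (11.8% and 9.69% of all genes), with a median log2 change of -0.06. Under it RPL10, RPL41, RPS9, RPS10, RPS15, RPS19 and RPS27L lost the call (adjusted p between 0.057 and 0.30), and 5 other members gained it, among them RPL4, RPL22 and RPS29. The difference between the slopes of the extracts had a Spearman correlation of -0.07 with GC content and 0.48 with coding length, while coding length had 0.08 with the Poria slope and -0.03 with the Atractylodis slope. After the correction 1 member, RPS27L, had a slope that was lower with Poria.

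**Figure D5:**
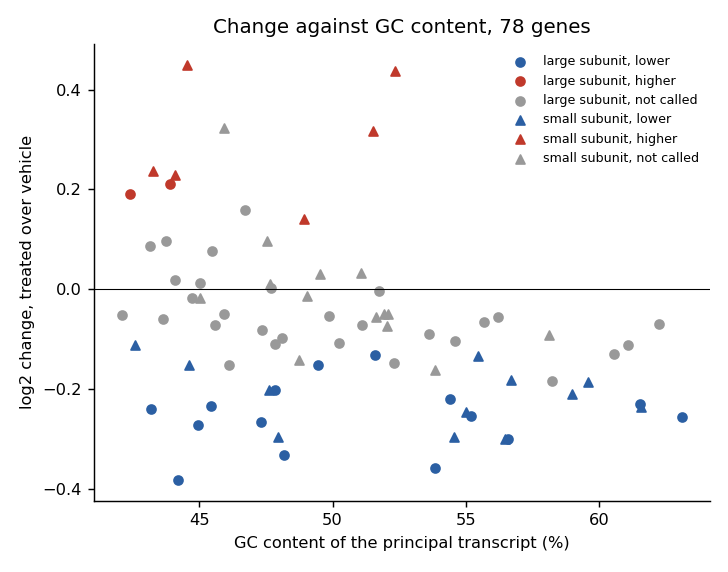
Log2 change in treated over vehicle libraries (vertical axis) against GC content of the principal transcript in percent (horizontal axis) for the 78 genes, with circles for the large and triangles for the small subunit. Members that fell lie between 42.6% and 63.1%, whereas the 8 that rose lie at or below 52.3%.

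Genes that work with the ribosomal proteins were followed on lists, given here as counts in the comparison of all treated with vehicle libraries, beside 13.3% lower and 12.0% higher over all genes. Ribosomal proteins under other names and paralogs had 3 lower and 2 higher of 10 tested. RPL36AL fell by 0.27, RACK1 fell by 0.11 and the paralog RPL22L1 rose by 0.23, with RPS27L as the other riser, while FAU had -0.15 ± 0.06 and was not called. Among translation factors 16 of 40 fell and 1 rose, with a median of -0.09: the elongation factor EEF2 fell by 0.19, EIF4G1 by 0.21 and PABPC4 by 0.25, and the helicase gene EIF4A2 rose by 0.39. EEF1A1, the most abundant of them, had 0.02 ± 0.04. Of 26 other mRNAs with an oligopyrimidine start, some of them also on other lists, 12 fell and 0 rose, with a median of -0.10, and TPT1 had 0.01 ± 0.04.

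Ribosome biogenesis genes had 21 of 40 lower and 1 higher, with a median of -0.13. PES1, of the complex that processes large subunit rRNA, fell by 0.36, the rRNA methyltransferase gene FBL by 0.32, RRP12 by 0.26 and the nucleolar protein gene NCL by 0.20, while the late kinase gene RIOK2 rose by 0.23. On the dose trends 14 of the 40 fell with Poria (11.6% of all genes) and 22 with Atractylodis (10.5% of all genes). No member of the list had a slope that differed between the extracts, against 0.676% lower and 0.485% higher among all genes. RNA polymerase I and its factors were split, with 3 of 14 lower and 5 higher: POLR1G fell by 0.48 and the factor genes TAF1B and TAF1C rose by 0.21 and 0.15. Of 22 tested genes of mTORC1 and translation control 10 fell and 4 rose. EIF4EBP1 fell by 0.33, AKT1S1 by 0.32 and LARP1, which binds oligopyrimidine starts, by 0.18, and the translation inhibitor gene PDCD4 rose by 0.27. MYC had -0.14 ± 0.06 and was not called. Mitochondrial ribosomal proteins had 24 of 77 lower and 5 higher, with a median of -0.08, and MRPS2 and MRPS15 fell by 0.31 and 0.28.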

How the data were processed

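The 9 libraries are RNA-seq of SW1783 cells. Per the labels' protocols, libraries were made with the MGIEasy RNA Directional kit and read as pairs of 100 bases. The submitters' processing notes name FastQC 0.11.9, Trim Galore 0.6.5, STAR 2.7.3a, RSEM 1.3.3 and the human build hg38, while the annotation release is not given in the sources used here. In the deposited table the values are expected counts per gene, estimated by RSEM, and each was rounded to a whole number. It has 279 columns; 9 were read for these samples and 270 were not used here. Symbols, biotypes and lengths came from GENCODE 29, which gave a symbol to 57055 of 60675 genes.

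The tests were run with R 4.3.3 and edgeR 4.0.16, using TMM factors (between 0.9635 and 1.0277), filterByExpr (count minimum 10, total minimum 15), robust quasi-likelihood fits and Benjamini-Hochberg adjustment over all 18356 genes tested, at a threshold of 0.05. Treated against vehicle, the dose trend (steps 0, 1, 2 and 3), the slope over the treated doses and the 7 groups had 7, 6, 4 and 2 residual degrees of freedom. The SE was taken as the log2 change over the root of its F statistic. CPM were scaled with the TMM-adjusted totals, and at these depths the number of libraries rather than counting limits the precision. Alternatives were DESeq2 1.42.0, its size factors in edgeR, library totals, no filter, offsets for GC content and length (splines with 5 degrees of freedom over genes of at least 1 log2 CPM), counts summed with pseudogenes, dose in µg/mL, and leaving out each library. In the fit of the 7 groups only vehicle libraries were left out. Fits were tested on simulated data with the same spread for every gene. Lists covered other ribosomal protein genes and paralogs, translation factors, oligopyrimidine mRNAs, ribosome biogenesis, RNA polymerase I, mTORC1, chaperones and quality control, and mitochondrial ribosomal proteins. Named members were the 5 lowest and 5 highest per comparison, the 5 highest and 5 lowest levels per kilobase and fixed genes of known function, and other genes named in the text were chosen after their values were seen. The members and lists were chosen with earlier results of these data known. Some genes counted among the members and lists are not reported here by name. Figures were drawn with matplotlib.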

Additional observations from a re-analysis of the deposited data

Results flagged for a closer look

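Some of the members whose level differed between the extracts at the same dose are listed with their log2 difference, Poria minus Atractylodis. Others, such as RPL13 and RPL36 at 20 µg/mL, are given above. The edgeR quasi-likelihood test had 1 library a side and a spread taken from the vehicle libraries alone. At 20 µg/mL the differences were -0.37 for RPLP2, -0.33 for RPL35, -0.27 for RPL38, -0.25 for RPS19, -0.21 for RPL29, -0.20 for RPL28 and -0.20 for RPL13A. At 500 µg/mL they were -0.34 for RPS27L, -0.27 for RPL39, -0.24 for RPL37A, -0.20 for RPLP2, -0.19 for RPL41, -0.16 for RPSA and -0.14 for RPS18. In each of them Poria was the lower one. RPLP2 was the only one of these named members that differed at both doses. The slopes of the extracts over all doses differed for none of them by adjusted p in edgeR, whereas DESeq2 called RPS27L (adjusted p = 0.029) and RPL37A (adjusted p = 0.045), and edgeR called RPS27L after GC and length correction (adjusted p = 0.048), without Poria at 20 µg/mL (adjusted p = 0.020) and without a low-count filter (adjusted p = 0.0015), where it also called RPL37A (adjusted p = 0.047).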

How the results depend on the processing

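No paired analysis was possible because the treated libraries all carry replicate number 2, so that the groups share fewer than 2 numbers. Of the tests of single named members under the alternatives, 2469 kept their direction and side of the threshold, 117 lost the call, 60 gained it and 0 reversed. Counts that moved by over 1.5 times were as follows, and the cause was not tested. With library totals alone, the Poria trend had 4 higher (17.3% of all genes) and the Poria slope over treated doses 1 lower (0.692%). The higher counts of Poria at 100 and 500 µg/mL, both counts of Atractylodis at 20 µg/mL and the lower count of Atractylodis at 500 µg/mL moved too. More of all genes were then called higher at each of these doses. With DESeq2 the Atractylodis trend had 32 lower (11.3% of all genes), the Poria trend 3 higher (8.07%) and the difference of trends 2 lower (1.01%). After GC and length correction the Poria trend had 2 higher (7.05% of all genes) and the difference of trends 1 lower (0.872%). The Poria slope over treated doses then had 1 lower (1.75%), and the higher count of Poria at 500 µg/mL moved too. Without a low-count filter the Poria trend had 2 higher (5.93% of all genes) and the difference of trends 3 lower (0.929%). The Atractylodis slope over treated doses then had 25 lower (2.00%). With dose in µg/mL both trends had 0 lower and 0 higher. Few of all genes passed either, with 0.261% lower and 0.419% higher for Poria and 0.142% and 0.223% for Atractylodis.

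Leaving out 1 library at a time gave 21 to 44 lower and 6 to 11 higher in treated against vehicle (9.28% to 15.5% and 7.07% to 13.9% of all genes). The Poria trend had 24 to 40 lower and 0 to 3 higher (8.07% to 13.0% and 5.86% to 10.3%). The Atractylodis trend had 13 to 29 lower and 2 to 7 higher (3.46% to 12.8% and 2.21% to 10.8%). Their difference had 0 to 1 lower (0.00% to 0.947%). The slopes over treated doses had 0 to 3 lower for Poria and 0 to 20 lower and 0 to 1 higher for Atractylodis. For the single doses and the differences at a dose, given next, only vehicle libraries were left out. Their ranges therefore do not show how far a treated library mattered, and some do not include the count with all libraries. The shares of all genes called moved too, and at each dose they were largest without vehicle replicate 2. For Poria against vehicle the counts were 35 to 40 lower and 5 to 12 higher at 20 µg/mL, 32 to 35 lower and 6 to 14 higher at 100 µg/mL, and 50 to 53 lower and 2 to 8 higher at 500 µg/mL. For Atractylodis they were 12 to 15 lower and 11 to 25 higher, 34 to 40 lower and 6 to 12 higher, and 37 to 38 lower and 7 to 15 higher at the same doses. Poria minus Atractylodis had 22 to 33 lower at 20 µg/mL, 0 to 1 lower and 0 to 2 higher at 100 µg/mL, and 16 to 32 lower and 0 to 1 higher at 500 µg/mL. The median member level, averaged over the vehicle libraries, was 510.3 CPM and 532.1 CPM with pseudogenes added. Per kilobase it was 548.2 on the principal transcript, 288.3 on the longest, 1085 on coding length and 531.3 with library totals alone. In simulated data, 51% of genes changed by 0.2 log2 were called in treated against vehicle and 3% of those changed by 0.1. The simulation gave every gene the same spread and put no difference between extracts or doses into this comparison. These shares therefore need not hold for the real libraries.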

Other observations

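Genes for the handling of ribosomal proteins and of stalled ribosomes did not move as 1 group: 4 of 24 tested were lower and 3 higher in treated than in vehicle libraries (13.3% and 12.0% of all genes), with a median log2 change of -0.02. The members that fell include IPO4, an importin, by 0.32, GRWD1, which binds RPL3 before assembly, by 0.31, BTF3 of the nascent chain complex by 0.21 and ZNF598, a sensor of collided ribosomes, by 0.21. LTN1 rose by 0.29, ASCC3 by 0.23 and NEMF by 0.13. HSPA8, the main chaperone on nascent chains, had 0.10 ± 0.06 and was not called.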
